A study of Mus musculus with 7 samples.

Results

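The 10 genes described here build or decorate the elastic fibre and the matrix laid down by fibroblasts. They were Fbn1, Fbn2, Eln, Lox, Dcn, Lum, Fn1, Postn, Tnc and Thbs1, chosen by name for their place in the matrix and matched by mouse Ensembl ID in a table of 53715 genes. Transcripts were measured by RNA-seq in 4 libraries of mouse embryonic fibroblasts, 2 from cells given R406 and 2 from cells given its solvent DMSO. R406, the active form of the drug fostamatinib, inhibits the tyrosine kinase Syk. All fibroblasts came from embryos at day 13.5 of the OG2 strain, CBA-Tg(Pou5f1-EGFP)2Mnn/J, whose transgene puts a green fluorescent protein under the Pou5f1 promoter. Those for RNA were used at passage 3. Both groups were kept in Stage 1 medium of chemical reprogramming, which holds bFGF, VPA, CHIR99021, 616452, Parnate, Forskolin, AM580, EPZ004777 and vitamin C, renewed every 4 days under a protocol of 12 days. One of these, 616452, blocks the type I receptor of TGF-beta, a growth factor that drives matrix genes in fibroblasts, so RNA was measured with that inhibitor present in both groups. A second assay, CUT&Tag, mapped the transcription factor Nfatc1 in fibroblasts infected with lentiviruses for rtTA and TetO-Flag-Nfatc1 and given doxycycline, so it shows a tagged protein made from a transgene. Those cells were kept in Stage 1 medium with doxycycline for 4 days, with R406 in 1 library and with DMSO in 1 library. Neither the dose of R406 nor the day of RNA harvest is given in the sources at hand.

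An elastic fibre is assembled outside the cell in steps. Fibrillins form beaded microfibrils, fibulins and related adaptors bring tropoelastin to them, and lysyl oxidases cross-link the elastin core into a rubber-like polymer. Around it, fibronectin forms the first fibrillar network that other matrix proteins need for assembly, decorin and lumican bind collagen fibrils and set their spacing, and periostin, tenascin C and thrombospondin 1 are matricellular proteins, which act on cells and on other matrix proteins more than as scaffold. Microfibrils also hold latent TGF-beta through its binding proteins.

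Expression was deposited as TPM, a length-corrected share of transcripts, whose values sum to nearly the same total in each library, so read depth is unknown. No label says that the libraries of a group came from separate cultures. Each p-value therefore sets a group difference only against the spread among these libraries, and that spread may be technical. The number of genes at 1 TPM or more was 13537 to 14045 per library. The label of fibroblasts was borne out by mesenchymal markers, 12 of 12 of which were tested and which summed to 5905 and 4021 TPM in the R406 libraries, against 5210 and 3975 TPM in the DMSO libraries. Of these 12, Col3a1 rose and Fap and S100a4 fell. Several markers of other cells moved with the treatment. Of 10 tested markers of extraembryonic endoderm 7 rose, of 10 epithelial markers 8 rose, of 9 macrophage markers 8 fell, of 8 smooth muscle markers 2 fell (Acta2 and Lmod1) and of 4 endothelial markers 1 rose (Esam). Over all tested genes, 4.26% rose and 4.05% fell. A gene was tested if its mean over the 4 libraries reached 1 TPM. Csf1r, Tyrobp, Fcer1g, C1qa, C1qb and C1qc were under 1 TPM in both R406 libraries, so their DMSO libraries alone brought them into the test. Apoa1, Cubn and Esrp1 were under 1 TPM in both DMSO libraries and were tested only through R406. With a filter at 5 TPM, 3 of 4 tested macrophage markers fell, 5 of 8 endoderm markers rose and 7 of 9 epithelial markers rose. That filter is also a mean over the 4 libraries, so it has the same limit. Cd68, C1qb and Lyz2 were under 5 TPM in both R406 libraries and reached it only through DMSO. Foxa2 and Cdh1 were under 5 TPM in both DMSO libraries and reached it only through R406. Without DMSO replicate 1, 3 endoderm, 3 epithelial and 0 smooth muscle markers were called by limma, although 8, 8 and 4 of them had an unadjusted p under 0.05, and 6 macrophage markers were called. Without R406 replicate 2 limma also called 0 smooth muscle markers, with 2 higher and 4 lower at an unadjusted p under 0.05. Extraembryonic endoderm markers summed to 1254 and 628 TPM with R406 and to 111 and 115 TPM with DMSO, and epithelial markers to 915 and 516 TPM with R406 and to 191 and 178 TPM with DMSO. Macrophage markers summed to 21.7 and 23.6 TPM with R406 and to 285 and 240.2 TPM with DMSO, with Ptprc and Itgam listed at 0 in both R406 libraries. Smooth muscle markers summed to 1395 and 898 TPM with R406 and to 1944 and 1457 TPM with DMSO, and within that list Myh11 (0.62), Smtn (0.71) and Myl9 (0.30) had log2 differences above 0 that did not pass. Endothelial markers summed to 23.2 and 16.3 TPM with R406 and to 12.2 and 12.0 TPM with DMSO. Their part in the results below was not tested.

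The genes of this matrix did not move as one block. Eln and Postn rose in R406-treated cells, Fbn1 and Fn1 fell, and the other 6 genes did not pass the test (limma on log2(TPM + 1), Benjamini-Hochberg adjusted p under 0.05 over 13929 genes). All 10 genes passed the filter of a mean of 1 TPM. The 2 genes that rose compare with 4.26% of all tested genes that rose, and the 2 that fell with 4.05% that fell, 8.31% in either direction. For 5 of the 10 genes both R406 libraries lay above both DMSO libraries, as for 25.9% of tested genes, and for 4 they lay below, as for 30.2%. In either direction that was 9 of 10 genes, against 56.1% of tested genes. The 10 genes and the other lists were chosen with earlier results of these data known. Their shares set beside those of all tested genes are therefore a description and not a test. Lum was the one gene whose groups overlapped. The median log2 change was 0.02 over the 10 genes and −0.02 over all tested genes. The count rests on single libraries: without DMSO replicate 1, limma called 1 gene higher and 0 lower, although 3 were higher and 3 lower at an unadjusted p under 0.05, a level that 16.2% of all tested genes reached in that fit. In bulk RNA, fewer cells of a type and less RNA per cell cannot be told apart.

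**Figure D1:**
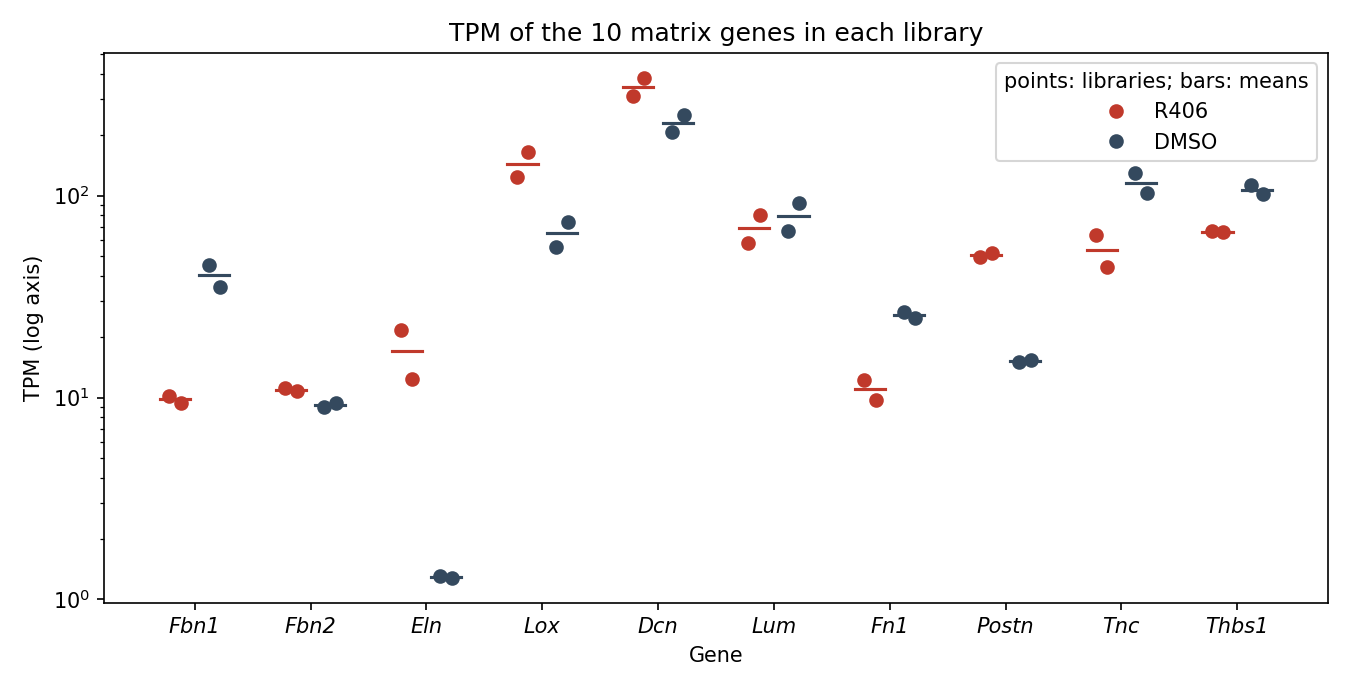
Level of each of the 10 genes in every library, in TPM on a log axis, R406 left of DMSO within each gene, with 1 point per library and a bar at the group mean. Eln and Postn stand higher with R406, Fbn1 and Fn1 lower, and the points of the 2 groups overlap for Lum.

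Fbn1 encodes fibrillin-1, the main microfibril protein after birth and the gene mutated in Marfan syndrome. Its ID is ENSMUSG00000027204 and its RefSeq span is chr2:125300594-125506485 (GRCm38.p6, minus strand). Its level was 10.2 and 9.42 TPM in the R406 libraries, against 45.3 and 35.3 TPM in the DMSO libraries. Both R406 libraries lay far below the lower DMSO library. The means were 9.81 ± 0.560 TPM with R406 and 40.3 ± 7.08 TPM with DMSO (SD, n = 2 each), and Fbn1 fell by 1.92 on the log2 scale (SE 0.21, limma adjusted p = 0.0180). The call was lost without DMSO replicate 1 (adjusted p = 0.0572). The bases around its start are shown because Nfatc1 peaks touch the region, with the NFAT core GGAAA in capitals on the strand printed. The window runs from 250 bases before the start to 50 after it, chr2:125506389-125506688 on the minus strand, from RefSeq on GRCm38.p6.
Fbn1: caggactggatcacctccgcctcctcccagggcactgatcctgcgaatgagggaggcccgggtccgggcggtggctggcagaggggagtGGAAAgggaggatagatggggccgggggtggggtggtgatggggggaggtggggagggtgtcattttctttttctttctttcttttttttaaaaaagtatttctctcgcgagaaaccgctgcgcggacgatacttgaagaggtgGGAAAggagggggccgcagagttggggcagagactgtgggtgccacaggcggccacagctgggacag
It held GGAAA 2 times, beginning at −161 and −17 counted from the first transcribed base, and its GC content was 60.3%. GGAAA, read on both strands as GGAAA or TTTCC, was present in 61.3% of 32851 RefSeq windows of the same length, with a median of 1 per window, so its presence sets no promoter apart.

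Fbn2 encodes fibrillin-2, the fibrillin most used in embryonic tissue, and lies at chr18:58008623-58210572. Its level was 11.1 and 10.8 TPM with R406, against 8.95 and 9.41 TPM with DMSO. The groups did not overlap, but the difference was small, at 0.23 on the log2 scale (SE 0.18, limma adjusted p = 0.478). The 2 fibrillins therefore stood at near equal TPM in R406-treated cells and far apart in DMSO-treated cells. The ratio of Fbn2 to Fbn1 within a library, which does not depend on the fixed TPM total, was 1.09 and 1.14 with R406, against 0.197 and 0.267 with DMSO. The mean ratio was 4.81 times as high with R406, and 4.18 to 5.65 times when each library was left out in turn. For a single ratio, 2 libraries against 2 cannot give an exact permutation p below 0.333, so the ratios are given without a test.

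Eln encodes tropoelastin, the elastic core of the fibre, and lies at chr5:134702595-134747368. It was measured at 21.5 and 12.3 TPM with R406, against 1.31 and 1.28 TPM with DMSO. The DMSO libraries were nearly equal and the R406 libraries differed from each other, yet the lower R406 library was well above both DMSO libraries. Eln rose by 2.91 on the log2 scale (SE 0.30, limma adjusted p = 0.0165), and its mean TPM was 13.0 times as high with R406. It was the only one of the 10 genes called in each of the 4 fits that left out a library, with adjusted p between 0.00106 and 0.0267. Among tested genes Eln stood at percentiles 65.2 and 56.5 of TPM with R406 and 7.93 and 7.72 with DMSO.

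Lox encodes lysyl oxidase, the copper enzyme that cross-links elastin and collagen, and lies at chr18:52516060-52529867. Its level was 123 and 164 TPM with R406, against 55.9 and 74.0 TPM with DMSO. Both R406 libraries were above both DMSO libraries, with a log2 difference of 1.13 (SE 0.25) that missed the threshold (limma adjusted p = 0.0622). Without R406 replicate 1 the adjusted p was 0.0437, and over all alternatives it ranged from 0.00359 to 0.291. Lox had more TPM than its substrate Eln in every library, but by unlike margins. The ratio of Lox to Eln was 5.71 and 13.4 with R406, against 42.6 and 57.7 with DMSO, and the mean ratio with R406 was 0.190 of that with DMSO. The ratio of Eln to Fbn1 was 2.11 and 1.31 with R406, against 0.0290 and 0.0363 with DMSO, 52.3 times as high on average (40.0 to 64.6 times when each library was left out).

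The other genes of elastic fibres and microfibrils mostly lay lower with R406. Of 25 listed, 22 were tested, 1 rose and 5 fell, against 4.26% and 4.05% of all tested genes. The median log2 change of the 22 genes was −0.80, against −0.02 over all genes tested. Mfap4, a microfibril-associated glycoprotein that binds elastin, was the gene that rose, at 39.0 and 32.9 TPM with R406 and 4.35 and 4.07 TPM with DMSO (log2 2.82, limma adjusted p = 0.0117). The genes that fell were 3 fibulin family genes, Efemp1, Fbln2 and Fbln5, and the latent TGF-beta binding proteins Ltbp1 and Ltbp2. Fbln5, a fibulin needed in mice for elastic fibre assembly, was at 72.1 and 63.9 TPM with R406, against 165 and 142 TPM with DMSO (log2 −1.16, adjusted p = 0.0346). Fbln2 was at 31.7 and 19.9 TPM with R406, against 220 and 126 TPM with DMSO (log2 −2.68, adjusted p = 0.0250). Efemp1 was at 14.0 and 15.3 TPM with R406, against 84.1 and 74.7 TPM with DMSO (log2 −2.36, adjusted p = 0.0125). Ltbp1 was at 16.9 and 13.0 TPM with R406, against 44.9 and 34.8 TPM with DMSO (log2 −1.36, adjusted p = 0.0374). Ltbp2 was at 5.61 and 3.30 TPM with R406, against 24.4 and 14.5 TPM with DMSO (log2 −1.90, adjusted p = 0.0418). The call of Ltbp2 was lost without DMSO replicate 1. Eln and Mfap4 rose where these 5 genes fell. The calls of Mfap4, Efemp1 and Fbln2 held whichever library was left out. The call of Fbln5 was lost without DMSO replicate 1 (adjusted p = 0.198), DMSO replicate 2 (0.113) or R406 replicate 2 (0.0740), and that of Ltbp1 likewise (adjusted p of 0.162, 0.0656 and 0.0535 in that order). The 2 listed genes of highest mean TPM over the 4 libraries did not pass: Efemp2, fibulin-4, was at 94.9 and 136 TPM with R406 and 348 and 235 TPM with DMSO (adjusted p = 0.0650), and the lysyl oxidase Loxl2 at 113 and 136 TPM with R406 and 197 and 223 TPM with DMSO (adjusted p = 0.0890).

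**Figure D2:**
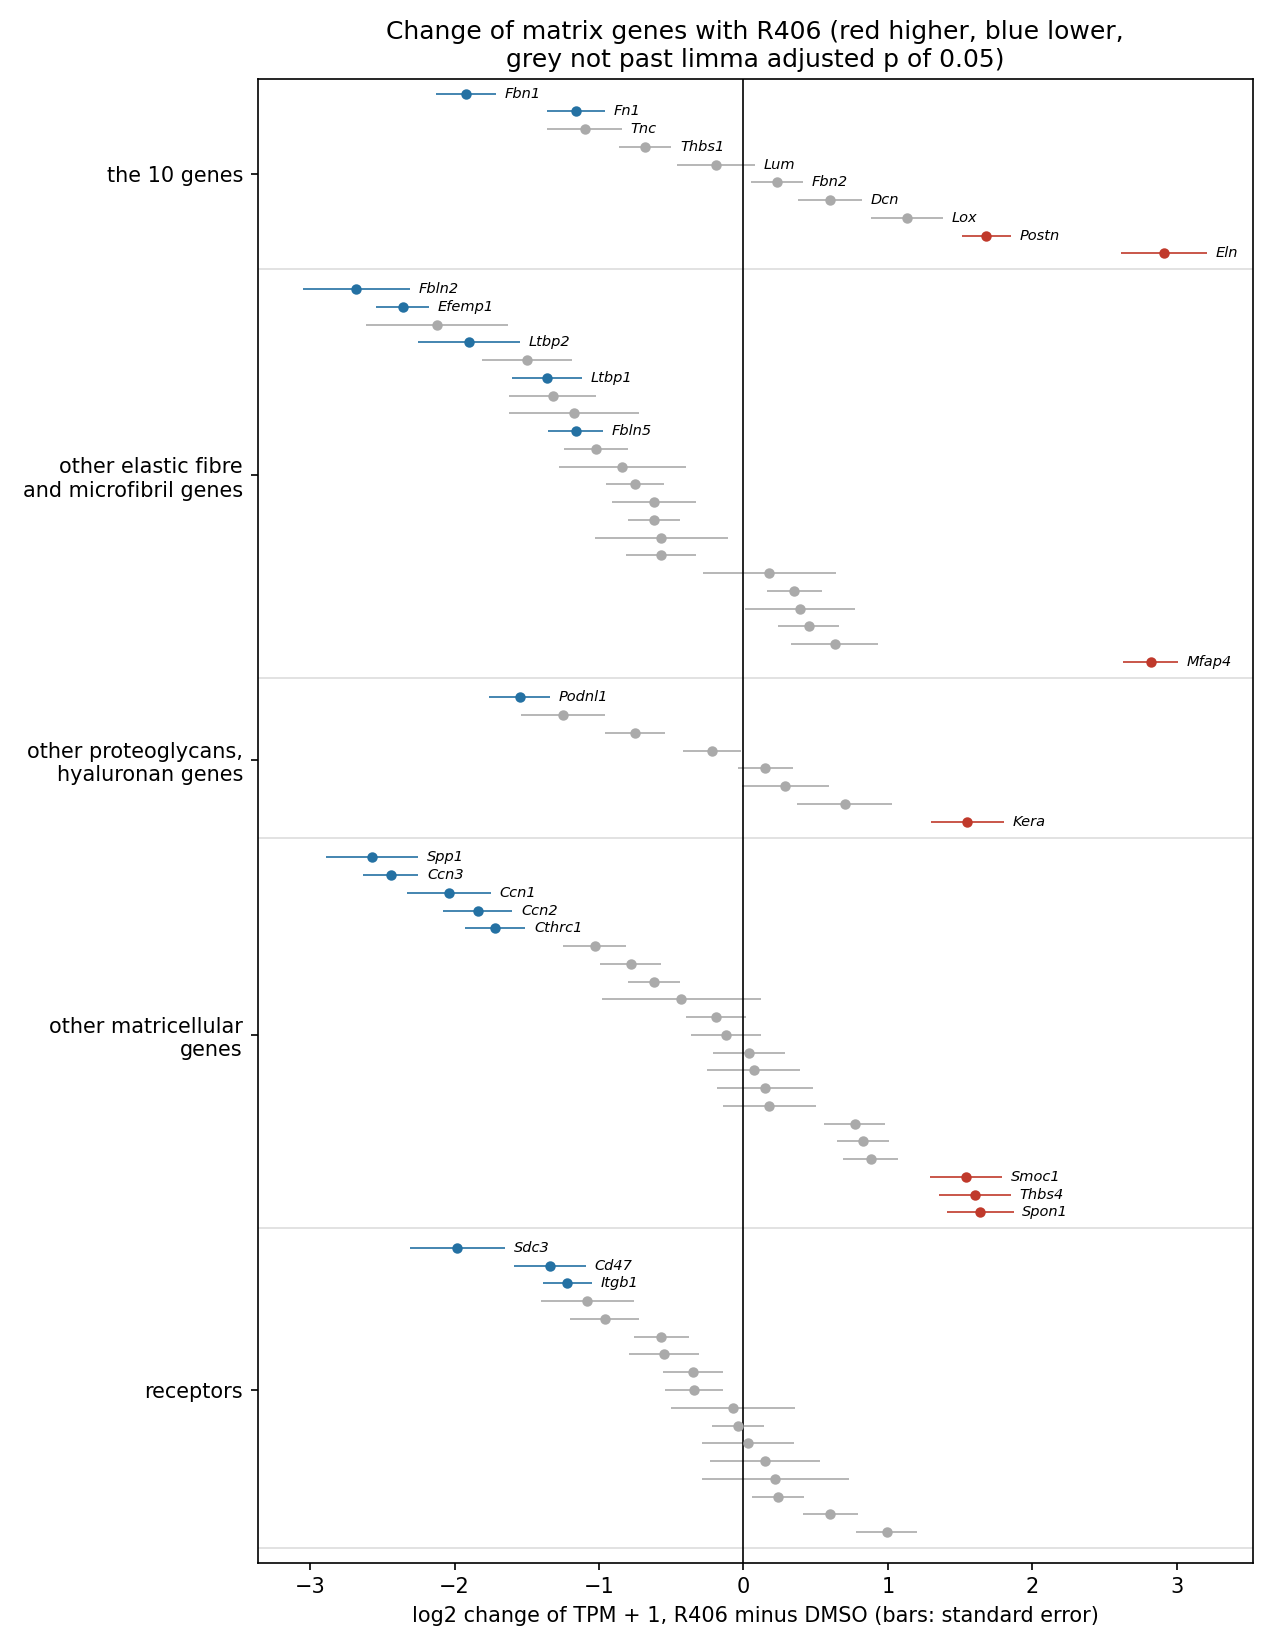
Log2 change, R406 over DMSO, of each tested gene on the log2(TPM + 1) scale, for the 10 genes and for 4 other matrix lists, with 1 point per gene and its standard error, red or blue where limma's adjusted p was under 0.05 and grey elsewhere. The 10 genes spread from −1.92 to 2.91, and the elastic fibre list has a median of −0.80.

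Dcn encodes decorin, a small leucine-rich proteoglycan that binds collagen I fibrils and TGF-beta, and lies at chr10:97479500-97518163. It had the highest TPM of the 10 genes in all 4 libraries, at 310.5 and 382 TPM with R406, against 206 and 250.4 TPM with DMSO. Both R406 libraries exceeded both DMSO libraries, but the log2 difference of 0.60 (SE 0.22) did not pass (limma adjusted p = 0.164). Lum encodes lumican, a keratan sulphate proteoglycan that limits collagen fibril width, and lies at chr10:97565501-97572703. It was at 58.4 and 79.7 TPM with R406, against 66.5 and 91.6 TPM with DMSO. Its groups overlapped, and its log2 difference was −0.19 (SE 0.27, adjusted p = 0.703), of opposite sign, at 0.04 and 0.03, without DMSO replicate 2 or without R406 replicate 1. Within each library the ratio of Lum to Dcn was 0.188 and 0.209 with R406, against 0.323 and 0.366 with DMSO, so the ratios did not overlap although the levels of Lum did.

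Dcn and Lum are neighbours in a cluster of these proteoglycan genes on chromosome 10, followed by Kera and Epyc, with gaps of 47.3, 34.3 and 30.4 kb and no other protein-coding gene of the RefSeq table between them. Kera, keratocan, best known from the cornea, rose: it was at 18.5 and 21.5 TPM with R406, against 4.99 and 7.56 TPM with DMSO (log2 1.55, limma adjusted p = 0.0326). Epyc was at 0.0271 and 0 TPM with R406 and listed at 0 in both DMSO libraries, and it was not tested. In the list of proteoglycans, 8 of 21 genes were tested, 1 rose (Kera) and 1 fell, against 4.26% and 4.05% of all tested genes. The median log2 change of the 8 genes was −0.04, against −0.02 over all tested genes. The gene that fell was Podnl1, at 1.57 and 1.20 TPM with R406 and 6.52 and 5.47 TPM with DMSO (log2 −1.55, adjusted p = 0.0225). The 2 listed genes of highest mean TPM over all 4 libraries were osteoglycin, Ogn, at 105 and 141 TPM with R406 and 56.8 and 97.3 TPM with DMSO (adjusted p = 0.255), and biglycan, Bgn, at 21.5 and 19.0 TPM with R406 and 26.2 and 21.5 TPM with DMSO (adjusted p = 0.544). Without DMSO replicate 1 both calls of this list were lost, with an adjusted p of 0.120 for Kera and 0.0790 for Podnl1.

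Fn1 encodes fibronectin, the dimer that cells pull into fibrils through the alpha 5 beta 1 integrin, and lies at chr1:71585473-71653280. It was at 12.3 and 9.77 TPM with R406, against 26.6 and 24.8 TPM with DMSO. Both R406 libraries were below both DMSO libraries, and Fn1 fell by 1.16 on the log2 scale (SE 0.20, limma adjusted p = 0.0375). This was the least stable of the 4 calls: it was lost without DMSO replicate 1 (adjusted p = 0.179), without DMSO replicate 2 (0.124) and without R406 replicate 2 (0.0741).

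Postn encodes periostin, a matricellular protein of periosteum, wounds and fibrotic tissue that binds fibronectin, tenascin C and collagen, and lies at chr3:54359267-54391041 on the plus strand. It was at 49.6 and 51.7 TPM with R406, against 14.9 and 15.4 TPM with DMSO. Libraries of 1 group were close to each other and the groups far apart. Postn rose by 1.68 on the log2 scale (SE 0.17, limma adjusted p = 0.0165), to 3.34 times the mean TPM with DMSO, and the call was lost without DMSO replicate 1 (adjusted p = 0.0653). RefSeq gives Postn more than 1 start, and both windows are shown because Nfatc1 peaks cover them to different extents in the 2 lists. Capitals mark TTTCC, the NFAT core on the other strand. Window 1 is chr3:54359017-54359316 and window 2 is chr3:54360857-54361156, both on the plus strand of GRCm38.p6.
Postn window 1: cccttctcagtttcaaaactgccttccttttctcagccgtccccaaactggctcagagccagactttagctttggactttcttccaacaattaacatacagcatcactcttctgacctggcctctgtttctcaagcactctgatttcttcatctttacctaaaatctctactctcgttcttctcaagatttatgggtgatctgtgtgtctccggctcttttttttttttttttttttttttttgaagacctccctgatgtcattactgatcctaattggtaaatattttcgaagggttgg
Postn window 2: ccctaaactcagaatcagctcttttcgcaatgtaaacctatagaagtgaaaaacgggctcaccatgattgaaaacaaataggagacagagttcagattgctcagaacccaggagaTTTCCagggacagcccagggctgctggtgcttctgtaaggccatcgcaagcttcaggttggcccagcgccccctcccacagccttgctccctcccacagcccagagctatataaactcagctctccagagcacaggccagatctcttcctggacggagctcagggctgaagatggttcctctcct
Window 1 held neither GGAAA nor TTTCC, and window 2 held TTTCC once, beginning at −135. Window 2 also held TATAAA, the TATA-box letters, at −26, as did 13.6% of all windows at any place.

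Tnc encodes tenascin C, a large six-armed glycoprotein of embryonic and wounded tissue, and lies at chr4:63959785-64047015 on the minus strand. It was at 64.1 and 44.1 TPM with R406, against 129 and 103 TPM with DMSO. Both R406 libraries were below both DMSO libraries, but the log2 difference of −1.10 (SE 0.26) missed the threshold (limma adjusted p = 0.0705). It passed under every rescaling tried, with adjusted p of 0.0260 after quantile normalization, 0.0271 after median centring and 0.0166 without mitochondrial, ribosomal protein and Gm genes. It also passed without R406 replicate 1 (adjusted p = 0.0363). The window at its outer RefSeq start, chr4:64046966-64047265 on the minus strand, is shown because the peaks of both Nfatc1 lists cover all of it, again with GGAAA in capitals.
Tnc window 1: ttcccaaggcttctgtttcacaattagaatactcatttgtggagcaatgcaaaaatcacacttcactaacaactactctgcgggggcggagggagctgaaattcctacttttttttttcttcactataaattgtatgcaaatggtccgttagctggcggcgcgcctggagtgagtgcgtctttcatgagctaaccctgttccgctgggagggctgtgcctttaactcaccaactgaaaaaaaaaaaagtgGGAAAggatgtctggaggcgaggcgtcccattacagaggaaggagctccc
It held GGAAA once, beginning at the first transcribed base.

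Thbs1 encodes thrombospondin 1, which binds CD47 and integrins and can release TGF-beta from its latent form, and lies at chr2:118111876-118127133. It was at 66.8 and 65.7 TPM with R406, against 112 and 102 TPM with DMSO. The groups did not overlap, and the log2 difference of −0.68 (SE 0.18) did not pass (limma adjusted p = 0.0856). Set against fibronectin in the same library, the 3 matricellular genes differed. The ratio of Postn to Fn1 was 4.04 and 5.30 with R406, against 0.561 and 0.621 with DMSO, 7.90 times as high on average. That of Thbs1 to Fn1 was 5.44 and 6.73 with R406, against 4.22 and 4.11 with DMSO, 1.46 times as high. That of Tnc to Fn1 was 5.22 and 4.51 with R406, against 4.84 and 4.17 with DMSO, and here the groups overlapped.

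**Figure D3:**
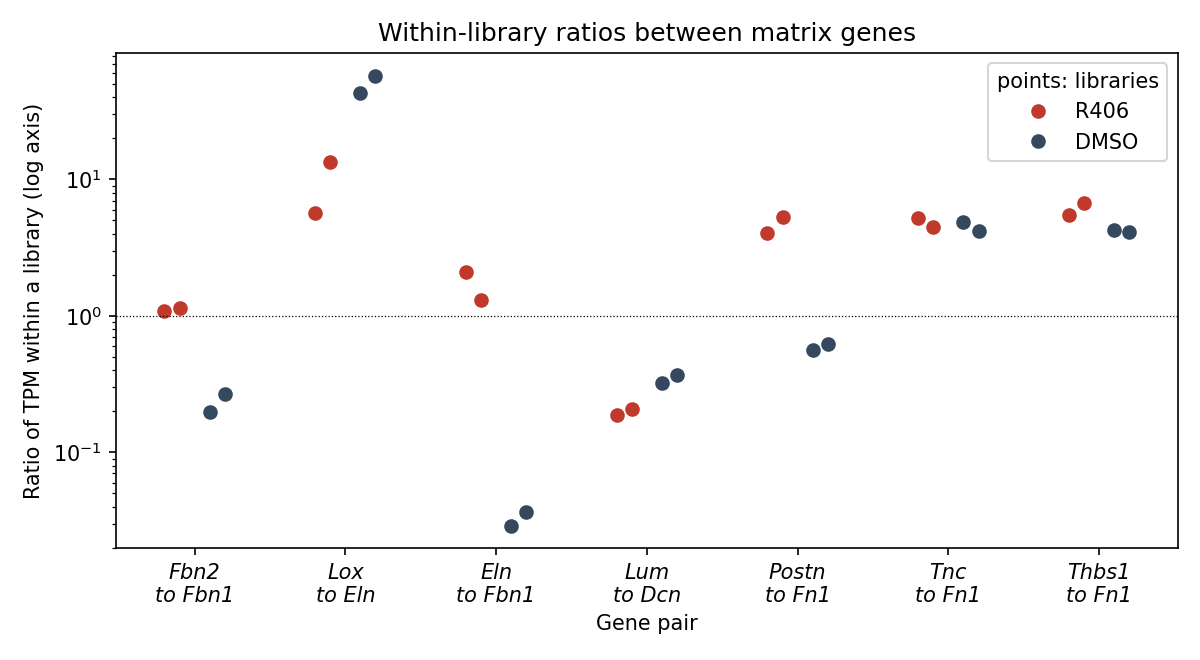
Ratio of TPM of 7 gene pairs within each library, on a log axis, with R406 left of DMSO and 1 point per library. The ratio of Eln to Fbn1 differs most, at 2.11 and 1.31 with R406 against 0.0290 and 0.0363 with DMSO, and the ratio of Tnc to Fn1 overlaps between groups.

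Other matricellular genes also went both ways. Of 25 listed, 21 were tested, 3 rose and 5 fell, against 4.26% and 4.05% of all tested genes. The median log2 change of the 21 genes was −0.12, against −0.02 over all tested genes. Those that rose were Spon1, Thbs4 and Smoc1. Spon1, spondin 1, was at 46.7 and 38.2 TPM with R406, against 14.9 and 11.1 TPM with DMSO (log2 1.64, limma adjusted p = 0.0264). Thbs4 was at 17.6 and 13.4 TPM with R406, against 3.71 and 5.21 TPM with DMSO (log2 1.60, adjusted p = 0.0308), and Smoc1 at 4.82 and 3.33 TPM with R406, against 0.545 and 0.915 TPM with DMSO (log2 1.54, adjusted p = 0.0319). Smoc1 was under 1 TPM in both DMSO libraries, so it passed the filter on low values only through its R406 libraries. Among those that fell were the CCN family genes Ccn1, Ccn2 and Ccn3. Ccn1 was at 64.1 and 48.7 TPM with R406, against 287 and 188 TPM with DMSO (log2 −2.04, adjusted p = 0.0262). Its call was lost without DMSO replicate 1. Ccn2, connective tissue growth factor, was at 3.15 and 2.82 TPM with R406, against 15.8 and 11.1 TPM with DMSO (log2 −1.84, adjusted p = 0.0215). Ccn3 was at 1.07 and 0.928 TPM with R406, against 10.2 and 9.43 TPM with DMSO (log2 −2.44, adjusted p = 0.0125). Spp1, osteopontin, which macrophages also make, was at 33.8 and 37.5 TPM with R406, against 288 and 162 TPM with DMSO (log2 −2.57, adjusted p = 0.0199). Macrophage markers moved the same way, with 8 of 9 tested lower and 0 higher at either p. Most of those that fell passed the filter only through their DMSO libraries. With a filter at 5 TPM 3 of 4 tested were lower. These 3, Cd68, C1qb and Lyz2, were under 5 TPM in both R406 libraries, so the stricter filter has the same limit. The part of macrophages in the change of Spp1 was not tested. Cthrc1, a secreted protein of collagen-rich wounds, was at 58.5 and 75.6 TPM with R406, against 226 and 216 TPM with DMSO (log2 −1.72, adjusted p = 0.0193). The 2 listed genes of highest mean TPM over the 4 libraries, Sparc and Ecm1, did not pass. Sparc was at 3291 and 2028 TPM with R406 and 2641 and 1970.0 TPM with DMSO (adjusted p = 0.774), and Ecm1 at 571 and 402 TPM with R406 and 553 and 492 TPM with DMSO (adjusted p = 0.798). Without DMSO replicate 1 the calls of Spon1 (0.0544), Thbs4 (0.111), Smoc1 (0.0996), Ccn2 (0.0661) and Cthrc1 (0.0764) were lost, by adjusted p in parentheses, and those of Ccn3 and Spp1 held whichever library was left out. Without DMSO replicate 2 the calls of Spon1 (0.0753) and Cthrc1 (0.0505) were lost.

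Of 20 receptors listed for these proteins, 17 were tested, 0 rose and 3 fell by limma, against 4.26% and 4.05% of all tested genes. At an unadjusted p under 0.05, which 26.8% of all tested genes reached, 2 receptors were higher and 6 lower. Itgb1, the beta 1 integrin chain through which fibronectin is bound, was at 144 and 141 TPM with R406, against 331 and 334 TPM with DMSO (log2 −1.22, adjusted p = 0.0264). Cd47, a receptor of Thbs1, was at 21.4 and 20.4 TPM with R406, against 44.1 and 66.8 TPM with DMSO (log2 −1.34, adjusted p = 0.0460). Both calls were lost whichever library was left out, with adjusted p of 0.0503 to 0.144 for Itgb1 and 0.0511 to 0.168 for Cd47. Sdc3, a syndecan, was at 2.67 and 1.64 TPM with R406, against 14.8 and 8.55 TPM with DMSO (log2 −1.98, adjusted p = 0.0346, and 0.0790 without DMSO replicate 1). Itgb5, the receptor of highest mean TPM over the 4 libraries but below Itgb1 in both DMSO libraries, was at 355 and 193 TPM with R406, against 289 and 191 TPM with DMSO (adjusted p = 0.841).

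The 10 genes together took 0.0728% and 0.0830% of all TPM with R406, against 0.0666% and 0.0708% with DMSO. The make-up of that share differed between the groups. They summed to 727 and 830.0 TPM with R406, against 666 and 708 TPM with DMSO. Dcn took 42.7% and 46.0% of that sum with R406, against 30.9% and 35.4% with DMSO. Lox took 16.9% and 19.8% with R406, against 8.40% and 10.5% with DMSO, and stood second among the 10 genes in both R406 libraries. Tnc, second in both DMSO libraries, took 8.81% and 5.31% with R406, against 19.3% and 14.6% with DMSO. Fbn1 took 1.40% and 1.13% with R406, against 6.80% and 4.99% with DMSO, and was last of the 10 in both R406 libraries. Eln was last in both DMSO libraries, at 2.96% and 1.48% with R406 and 0.197% and 0.181% with DMSO. Ribosomal protein genes took 19.8% and 23.4% of all TPM with R406 and 14.4% and 16.2% with DMSO, and their part in these shares was not tested.

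**Figure D4:**
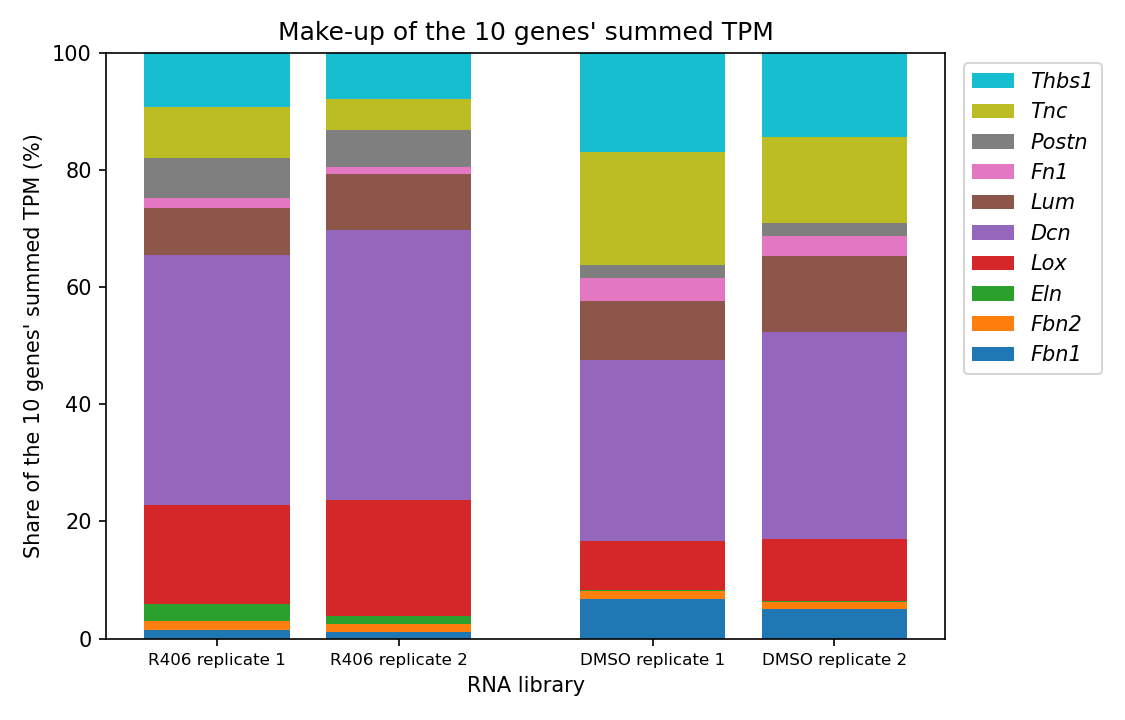
Share of the summed TPM of the 10 genes taken by each of them, in percent, in the R406 libraries on the left and the DMSO libraries on the right. Dcn takes 42.7% and 46.0% with R406 against 30.9% and 35.4% with DMSO, while Tnc and Fbn1 shrink with R406.

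For each of the 10 genes the nearest of 68 tested genes of the other 4 lists was taken by Euclidean distance between log2(TPM + 1) profiles over the 4 libraries, each centred on its mean, as a description. Fbn1 lay nearest to Ccn2 (distance 0.120), Fn1 to Fbln5 (0.128), Tnc to Loxl4 (0.164) and Thbs1 to its relative Thbs2 (0.0677). Eln lay nearest to Mfap4 (0.383), Postn to Kera (0.372), Lox to Itga8 (0.226) and Dcn to Sparcl1 (0.282). Fbn2 and Lum, the genes with the smallest differences between groups, lay nearest to Itgb3 (0.0604) and Itga1 (0.335).

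Nfatc1 peaks lay at every one of the 10 genes in the R406 list and at 8 of them in the DMSO list, counted within the gene or 10 kb of it. Eln and Dcn had a peak in the R406 list and none in the DMSO list. Among 13300 expressed genes with RefSeq coordinates, 76.3% had such a peak in the R406 list and 58.7% in the DMSO list. Among the 3858 of them at least as long as the median of the 10 genes, 41.7 kb, the shares were 86.8% in the R406 list and 71.7% in the DMSO list, so a peak near a gene of this length was common. The lists held 36885 peaks with R406 and 21246 with DMSO, from 1 library each, with peaks called separately by the authors, so no difference between them was tested. The peak folds and q-values below are the authors' own. At the 10 genes there were 45 peaks in the R406 list, of which 44.4% overlapped a DMSO peak by at least 1 base, and 24 in the DMSO list, of which 83.3% overlapped an R406 peak. Over all peaks these shares were 41.4% of the R406 list and 73.0% of the DMSO list.

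The longest genes held the most peaks: Fbn1 had 11 with R406 and 7 with DMSO, Fbn2 had 9 with R406 and 5 with DMSO, and Tnc had 7 with R406 and 3 with DMSO. The highest fold at any of the 10 genes was at Thbs1, 33.5 in the R406 list over chr2:118110074-118112218, across the lower end of the gene, where the DMSO list had a peak of fold 15.3 over chr2:118111249-118111716. At Fbn2, a peak near the upper end of the gene (R406 summit at −3631 bases from it) had fold 31.6 with R406 and 10.2 with DMSO. Tnc held a peak of fold 27.8 over chr4:63996131-63997016 in the R406 list that overlapped no DMSO peak. At Lox, a peak within the gene was nearly alike in both lists, at fold 25.9 with R406 and 23.3 with DMSO. The one peak at Eln lay within the gene, over chr5:134709303-134709754, at fold 14.5 with R406. Dcn had 3 peaks with R406, the highest of fold 14.5 with its summit at −156 bases from the lower end of the gene.

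The peaks at the 4 called genes are given as a description. Of the genes that rose, Eln had 1 peak with R406 and 0 with DMSO, and Postn had 3 in each list. Of those that fell, Fbn1 had 11 with R406 and 7 with DMSO, and Fn1 had 2 in each list. The highest fold was 20.2 with R406 and 8.74 with DMSO at Fn1, 15.8 with R406 and 8.01 with DMSO at Postn, and 13.9 with R406 and 18.9 with DMSO at Fbn1. In the printed windows, an R406 peak of fold 6.96 covered 42 of the 300 bases at Fbn1, and the DMSO peak there, of fold 6.56, covered 0. The DMSO peak ended at base 125506388, right beside the window, and the R406 peak at base 125506430. These peaks overlapped each other, with summits at −311 bases (R406) and −240 bases (DMSO) from the upper end of the gene. Window 1 of Postn was covered whole by an R406 peak of fold 15.8, over chr3:54358388-54359476, and by 0 bases of a DMSO peak. A DMSO peak of fold 8.01 lay within that same R406 peak, over chr3:54358554-54358823. Both summits lay outside the window, at −620 bases (R406) and −578 bases (DMSO) from the lower end of the gene. Window 2 of Postn was covered over 156 bases with R406 and 202 bases with DMSO, at fold 8.22 with R406 and 8.01 with DMSO. The window of Tnc was covered whole in both lists, at fold 19.6 with R406 and 16.8 with DMSO. Among the windows of tested genes, 45.8% met a peak in the R406 list and 31.3% in the DMSO list. Whether a tagged Nfatc1 peak bears on the level of a gene was not tested.

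**Figure D5:**
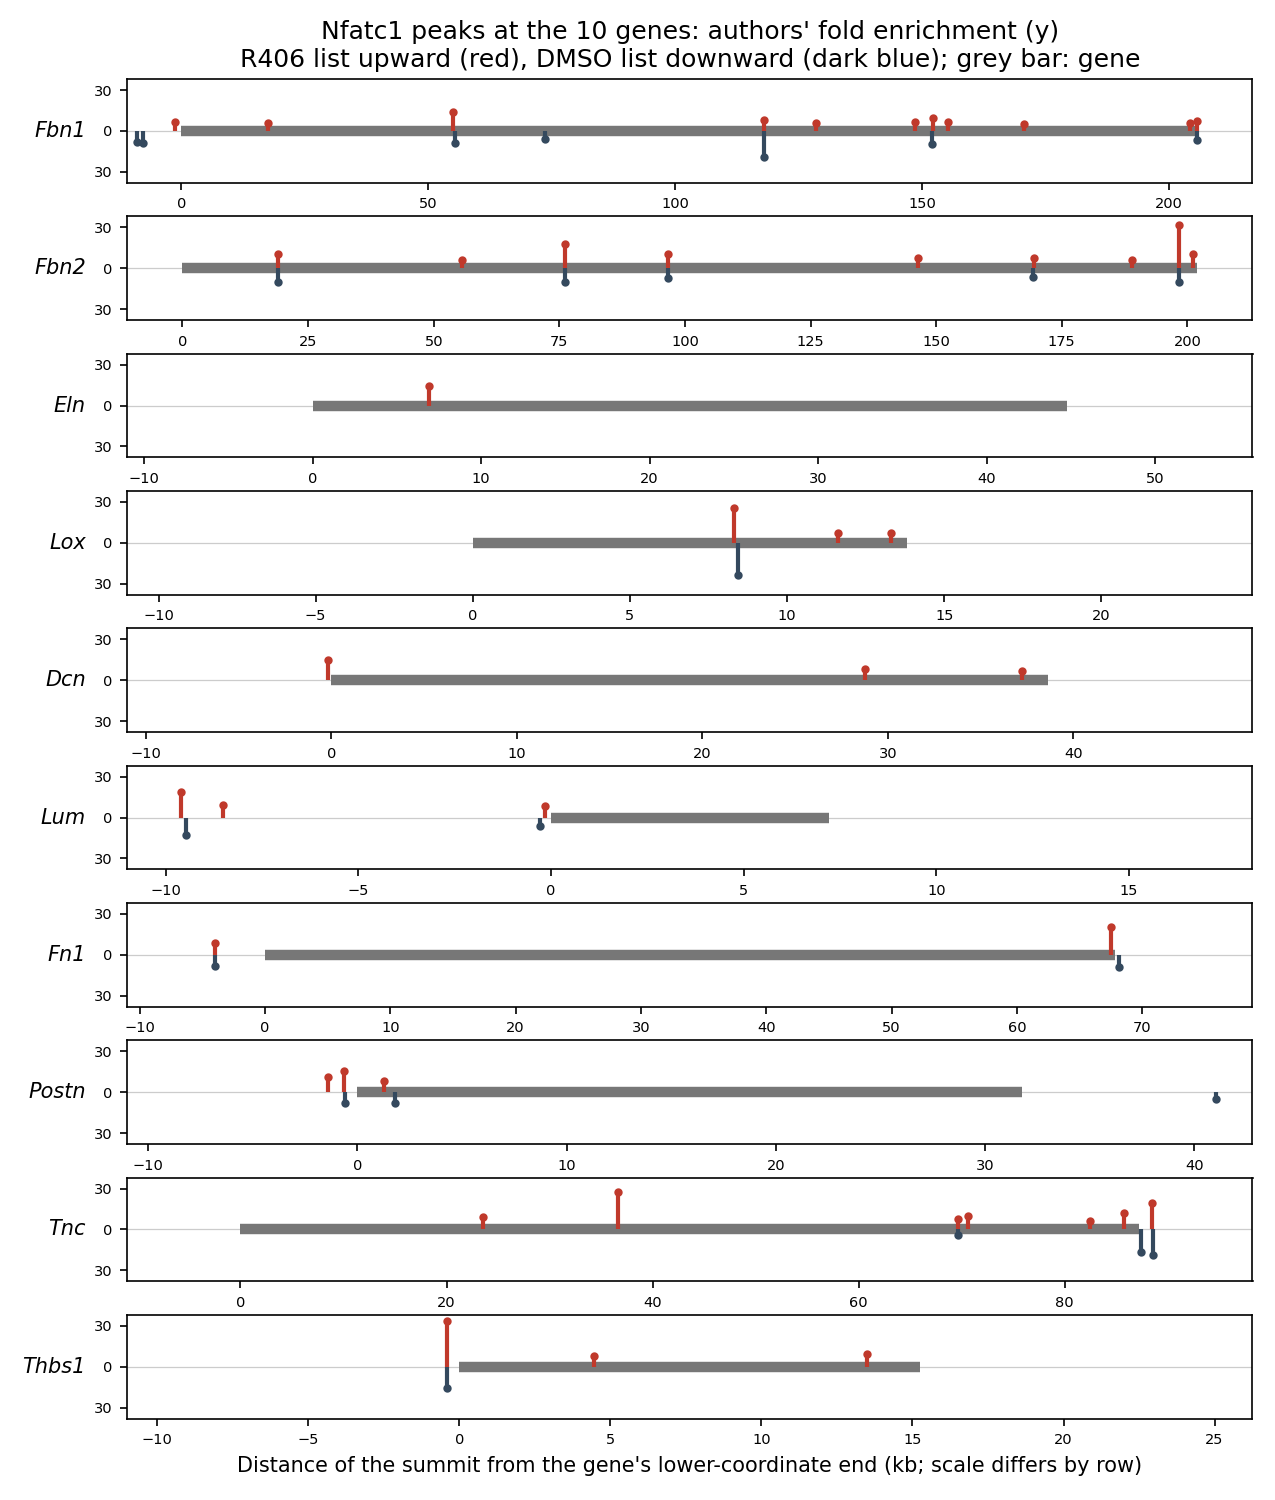
Nfatc1 peaks within 10 kb of each of the 10 genes in the R406 list and the DMSO list, from 1 library each, by position relative to the gene and by the authors' fold enrichment. All 10 genes have a peak with R406, and Eln and Dcn have none with DMSO.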

How the data were processed

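RNA-seq was measured in 4 libraries and CUT&Tag in 3, of which the blank without primary antibody was not analysed here. Groups and replicate numbers came from the sample titles. The authors deposited TPM per gene, and the 4 single files equalled the columns of the series table. An NEBNext Ultra kit was used on total RNA, per the labels' protocols. That kit keeps no strand, so reads of overlapping genes cannot be told apart. HISAT2 2.1.0, StringTie 2.0, Bowtie2 2.2.5, MACS2 2.1.2 and the build mm10 are named in the submitters' processing notes. The notes used here do not say which tool made which file or whether the blank served as control for peaks. The authors deposited peaks with a score, a fold enrichment, a −log10 p-value and a −log10 q-value. Peaks in the R406 list carry a name without the word R406, and the list was assigned by its sample.

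The filter kept 13929 genes whose mean TPM over all 4 libraries reached 1. Differences were tested in R 4.3.3 with limma 3.58.1 (two-sided, trended prior variance) on log2(TPM + 1), which understates changes of low genes. Adjustment was by Benjamini-Hochberg over every gene kept, with a threshold of 0.05. The fit has 2 residual degrees of freedom. It was also run on simulated data with independent noise and large changes planted in genes of high TPM. The called genes among the 10 had lower TPM, so that run does not cover them. Gene spans and the promoter windows came from RefSeq tables of GRCm38.p6, matched by symbol. The windows covered 3 of the 10 genes, and mm10 is the same build. Peaks were assigned to a gene within its span or 10 kb of it.

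The 10 genes and all other lists were chosen with earlier results of these data known. All 10 were named, and in each other matrix list up to 4 called genes per direction with the smallest p and the 2 of highest mean TPM, with Ltbp2, Ccn1 and Epyc, and the called cell type markers, named in addition after their values were seen. Alternatives were pseudocounts of 0.1 and 0.5, no filter, a filter at 5 TPM, quantile normalization, median centring, TPM without mitochondrial, ribosomal protein and Gm genes, no trend, a replicate block and each library left out. For peaks they were a −log10 q-value of at least 10, the gene span alone, 50 kb either side and a stricter overlap.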

Additional observations from a re-analysis of the deposited data

How the results depend on the processing

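Eln kept its call in 12 of the 13 alternatives, and the 6 genes without a call kept their direction except Lum. Without a filter on low values, 27879 genes were tested and limma called 0 genes higher and 0 lower, also among the 10 genes, although 5394 had an unadjusted p under 0.05, among them 8 of the 10. With a filter at 5 TPM, 311 genes were higher and 332 lower over the table, against 593 and 564 as reported. Median centring gave 933 higher and 755 lower, quantile normalization 877 higher and 850 lower, and TPM without mitochondrial, ribosomal protein and Gm genes 1134 higher and 1018 lower. Leaving out each library gave 159 to 914 higher and 158 to 574 lower over the table, and 1 to 3 higher and 0 to 3 lower among the 10 genes. There the lone library is assumed to vary like the other group. Of the 17 genes of other lists named by rule with a call, 5 were called without DMSO replicate 1, 11 without DMSO replicate 2, 15 without R406 replicate 1 and 13 without R406 replicate 2.

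No label says that equal replicate numbers share a culture. The differences between replicates 1 and 2 were correlated between R406 and DMSO over genes (Pearson r = 0.556). With the replicate block, 2128 of 13929 tested genes were higher and 2535 lower, against 593 and 564 without it. Of the 10 genes, 4 were then higher (Eln, Postn, Lox and Dcn) and 4 lower (Fbn1, Fn1, Tnc and Thbs1). In the other lists the block gave 2 higher and 15 lower of 22 elastic fibre genes, Efemp2 (limma adjusted p = 0.0251) and Loxl2 (0.00608) among the lower. It gave 2 higher and 3 lower of 8 proteoglycans, 6 and 8 of 21 matricellular genes and 2 and 5 of 17 receptors.

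Genes without a call changed sign for Lum (−0.42 to 0.04 when each library was left out, 0.04 without DMSO replicate 2, 0.03 without R406 replicate 1), Sparc (−0.17 to 0.53 likewise, −0.11 with quantile normalization, −0.03 without DMSO replicate 2, −0.17 without R406 replicate 1), Ecm1 (−0.37 to 0.13 likewise, 0.13 without R406 replicate 2) and Itgb5 (−0.29 to 0.59 likewise, −0.15 without DMSO replicate 2, −0.29 without R406 replicate 1), all on the log2 scale. The share of all TPM taken by the 10 genes was 0.00920 percentage points higher with R406, 0.0193 without mitochondrial, ribosomal protein and Gm genes, and 0.00407 to 0.0143 when each library was left out. Peaks at the 10 genes numbered 29 with R406 and 13 with DMSO at a −log10 q-value of at least 10, and 82 with R406 and 47 with DMSO within 50 kb. Depth is unknown for these TPM values, and with 2 libraries per group a p that misses the threshold does not show equal levels. The cause of these shifts was not tested.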
